A study of Mus musculus with 13 samples.

Results

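Fatty acid oxidation breaks acyl chains down to acetyl-CoA. Long chains enter the mitochondrion as carnitine esters, pass through repeated rounds of dehydrogenation, hydration, a further dehydrogenation and thiolytic cleavage, and hand their electrons to the respiratory chain through the electron transfer flavoprotein. The PPAR nuclear receptors bind fatty acids and, as partners of retinoid X receptors, switch on many of these enzymes together with fuel-switch and lipid droplet genes such as Pdk4, Angptl4 and Plin2. In the endometrium, fatty acid oxidation is known for its part in the decidualization of stromal cells.

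The genes described here are 33 listed members of this pathway: enzymes of fatty acid oxidation, the carnitine shuttle, fatty acid uptake genes, PPAR receptors, the coactivator Ppargc1a and further PPAR targets. A member was measured where a feature of the array carried its symbol and no other, which held for 29 of the 33, each with 1 feature, among 30145 symbols measured in this way. Etfb and Ppard lay only on features that carried several symbols, and Acsl1 and Ucp2 matched no named feature. Those 4 have no value below.

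The study set estradiol and a high-fat diet, given singly or combined, against plain chow and profiled the endometrial transcriptome of mice without ovaries. All 13 animals were C57BL/6 females whose ovaries had been removed on both sides at 6 to 8 weeks of age, and treatment lasted 12 weeks. CON mice (n = 3) ate normal chow, HD mice (n = 3) ate a high-fat diet, E2 mice (n = 4) ate chow and carried an estradiol-releasing pellet under the skin, and MIX mice (n = 3) had both the pellet and the high-fat diet. Endometrium was scraped from the opened uterus, and each mouse gave 1 array, labelled from 250 ng of total RNA. Scraping takes the whole lining, so each value is an average over epithelium, stroma, vessels and immune cells. In such bulk samples, fewer cells of a type and less RNA per cell cannot be told apart.

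Values are log2 expression as deposited, so an increase of 1 is a doubling. They ran from 1.66 to 13.8 over 65929 features, with array medians from 4.48 to 4.71. MIX replicate 3 stood apart on the leading principal component and MIX replicate 2 on the next, and values without one of them are given beside the results they move most. The epithelial markers Krt8 and Epcam averaged 11.4 and 10.6, far above the array medians. The titles carry numbered animal codes in 2 CON, 3 E2 and 2 HD mice and lettered codes in the other 6, among them all MIX mice. CON, E2 and HD have 1 lettered mouse each, so every difference within lettered mice rests on 1 mouse in at least 1 of its groups. The sources used here do not say what the code styles mean. Differences below are therefore limma differences adjusted for code style, given with their standard error (SE), and can depart from a plain difference of the group means. Group values are means ± SD with the n above, and p-values measure the spread between these mice.

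How far levels differed from mouse to mouse varied between members. The range over the 13 mice had a median of 0.75 on the log2 scale and was under 0.5 for 10 of the 29 genes. It exceeded 1 for 9, among them Ppargc1a with the widest range, 2.72, and was narrowest for Ppara at 0.15. Cd36 alone was below the array median in any mouse, in 5 of the 13, and 37.9% of all named features were dimmer than it.

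**Figure D1:**
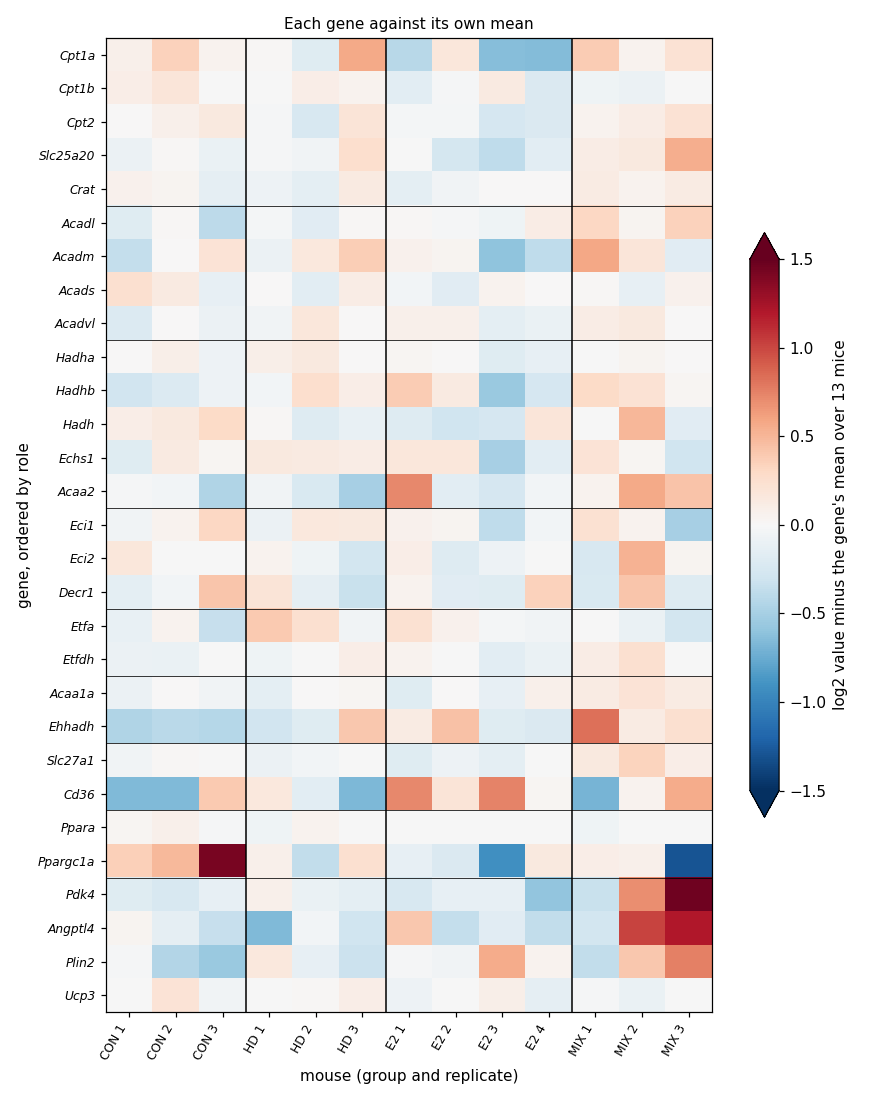
Each row is a gene, ordered by its role in the pathway, and each column a mouse. Colour gives the log2 value minus the mean of that gene over the 13 mice, from blue (lower) to red (higher). Most rows are pale, whereas Ppargc1a is darkest red in CON 3 and darkest blue in MIX 3, and Pdk4, Angptl4 and Plin2 are red in MIX 2 and MIX 3 but not in MIX 1.

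PPAR and retinoid X receptor pairs bind a direct repeat of the core site AGGTCA with 1 base between the copies, the DR1 element. RefSeq promoters on GRCm38.p6, from 250 bases before to 50 after a start site, were available for 24 of the 29 measured members, which have 26 such promoters. None was available for Acaa2, Angptl4, Cpt1b, Crat and Decr1. The letters AGGTCANAGGTCA, searched on both strands with up to 2 mismatches, matched 6 of the 26 (23.1%), against 1268 of 32851 promoters of all genes (3.86%). Members were listed in part because they are PPAR targets, so the 2 shares are not an unbiased comparison. The 6 windows are shown because they are the only places in these promoters that matched. Each has 2 mismatches, the most allowed, so none spells out the full repeat. They are written on the strand of the gene with the matched 13 bases in capitals.
Plin2: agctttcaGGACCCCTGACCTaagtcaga
Cd36: tggttctcTGGCCTCTGACTTacttggat
Ucp3: tcagaattAGGTTTCAGGTCAgctggtgc
Echs1: gcccgctcAGGTCACGGGTCCacccctta
Etfa: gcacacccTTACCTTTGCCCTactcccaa
Slc25a20: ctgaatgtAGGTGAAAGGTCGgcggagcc

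In Plin2, Cd36 and Etfa the repeat reads on the strand opposite to the gene. The windows lie at chr4:86670264-86670292 for Plin2, chr5:17835939-17835967 for Cd36, chr7:100472932-100472960 for Ucp3, chr7:140116484-140116512 for Echs1, chr9:55512300-55512328 for Etfa and chr9:108662134-108662162 for Slc25a20. Counting the start site as position 1, the first capital is at position -225 in Plin2, -63 in Cd36, -51 in Ucp3, -83 in Echs1, -77 in Etfa and 7 in Slc25a20. A single core site AGGTCA, which overlaps the DR1 letters, occurred in 7 of the 26 promoters (26.9%) and in 16.3% of all promoters. An estrogen response element, GGTCANNNTGACC with up to 1 mismatch, occurred in 0 of the 26 and in 0.877% of all promoters. The site of estrogen-related receptors, TCAAGGTCA, occurred in 0 of the 26 and in 0.423% of all. These matches describe letters in short windows and show neither binding nor its absence.

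Without the pellet, the diet differences of the enzymes of fatty acid oxidation and the carnitine shuttle lay on both sides of 0. Among these 21 genes, 11 had a difference above 0, the median was 0.01, the differences ran from -0.27 to 0.41, and all 21 of their 95% intervals lay within 1 of 0. Over all members 28 of the 29 did, a share near the 93.6% of all features. Over all 29 members, 14 differences were above 0 (57.2% of all features), with a median of -0.01 against 0.02 over all features. By limma with Benjamini-Hochberg adjustment, 0 of the 29 passed an adjusted p under 0.05, where 0% of all features passed. At an unadjusted p under 0.05, 1 member, Etfa, was higher and 0 were lower, against 1.99% and 0.916% of all features. HD and CON mice did not overlap for 2 members that were higher in HD, Ehhadh and Hadhb, and for 2 that were lower, Ppargc1a and Hadh, where 5.58% and 2.96% of all features were separated in these directions.

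In mice with the pellet, the diet differences leaned upward. MIX minus E2 was above 0 for 24 of 29 members, against 43.7% of all features, and its median was 0.15 against -0.02. All features include unnamed and dim ones, and shares over features as bright as the members were not computed. Again 0 members passed in limma (0% of all features), with 4 higher at an unadjusted p under 0.05 (1.25% of all features) and 0 lower (1.53%). The 4 were Slc27a1, Slc25a20, Pdk4 and Angptl4. MIX and E2 mice did not overlap for 5 members that were higher in MIX (1.5% of all features) and 0 that were lower (4.15%): Slc27a1, Slc25a20, Acaa1a, Cpt2 and Crat. Averaged over both pellet states, the diet difference was above 0 for 22 members (50.7% of all features), had a median of 0.11 (0.00 over all features), and 0 members passed (0%). At an unadjusted p under 0.05, 3 members were higher (1.79% of all features), namely Slc25a20, Etfa and Hadha, and 1 was lower (1.57%), Ppargc1a.

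**Figure D2:**
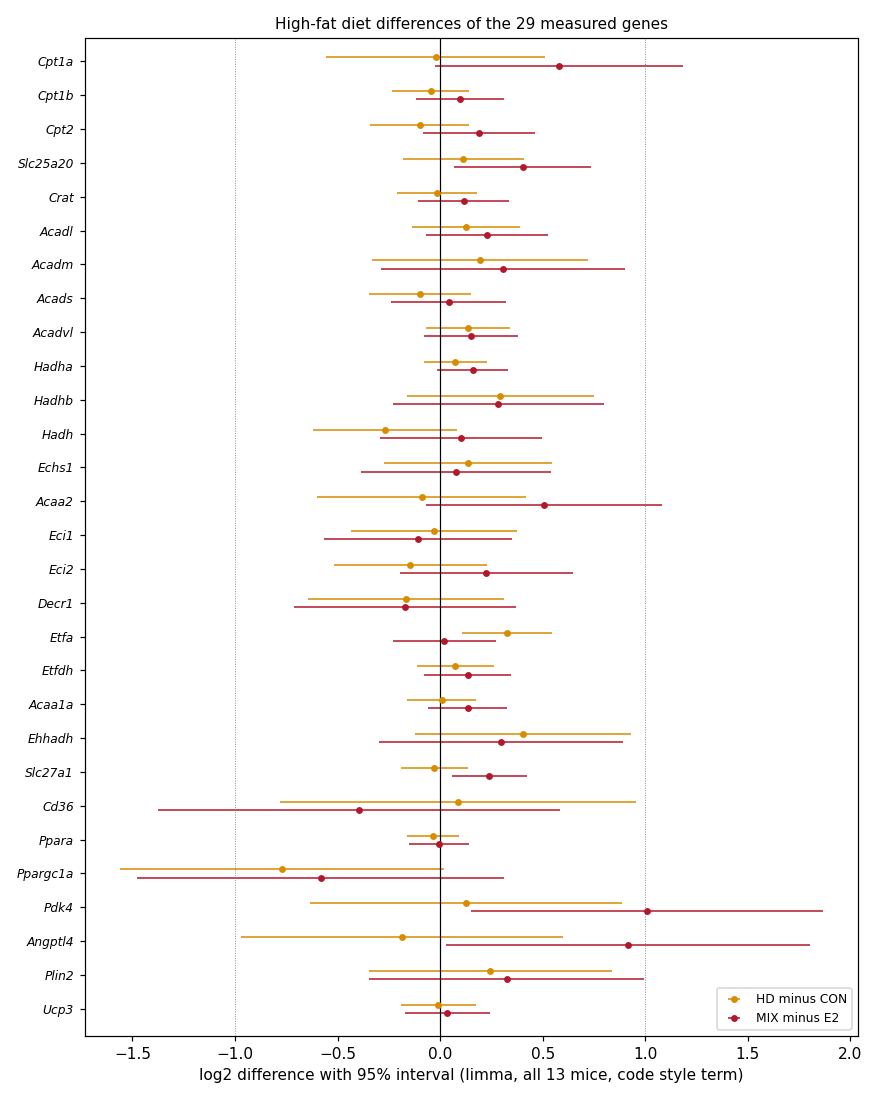
Points are log2 differences between diets for the 29 measured genes, without the pellet (HD minus CON, amber) and with it (MIX minus E2, red), and lines are 95% intervals from limma. The dotted lines mark a difference of 1 in either direction. HD minus CON intervals are within 1 of 0 for 28 of the 29 genes, and the MIX minus E2 intervals of Pdk4 and Angptl4 lie above 0 and extend beyond 1.

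The pellet on chow went with lower Ppargc1a and Cpt1a. E2 minus CON was above 0 for 10 of 29 members (46.5% of all features), with a median of -0.08 against -0.01. In limma 0 members passed (0% of all features), and at an unadjusted p under 0.05 there were 0 higher (1.93%) and 2 lower (2.09%), Ppargc1a and Cpt1a. E2 and CON mice did not overlap for Ehhadh, which was higher in E2 (3.01% of all features), or for Ppargc1a and Cpt2, which were lower (2.6%). On the high-fat diet the pellet difference, MIX minus HD, was above 0 for 20 members (37.5% of all features), with a median of 0.08 against -0.04. There 0 members passed (0.00455% of all features), and 2 were higher at an unadjusted p under 0.05 (2.41%), Acaa2 and Angptl4, with 0 lower (4.64%). Acaa2, Slc27a1, Acadl and Acaa1a were higher in every MIX mouse than in any HD mouse (3.47% of all features), and 0 members were separated the other way (12.4%).

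Averaged over both diets, the pellet difference was above 0 for 16 members (38.9% of all features), with a median of 0.01 against -0.03, and 0 passed (0.0167% of all features). At an unadjusted p under 0.05, Acaa2, Acadl, Plin2 and Ehhadh were higher (3.73% of all features) and Ppargc1a was lower (6.25%). Both treatments together, MIX minus CON, gave 20 members above 0 (42.5% of all features) and a median of 0.13 against -0.03. Again 0 passed (0.00303% of all features). At an unadjusted p under 0.05, 6 were higher (3.7%), Acadl, Ehhadh, Acaa2, Plin2, Pdk4 and Angptl4, and 1 was lower (4.64%), Ppargc1a. MIX and CON mice did not overlap for 7 members that were higher in MIX (5.52% of all features), Acadl, Ehhadh, Acaa2, Slc27a1, Slc25a20, Hadhb and Acaa1a, and for 1 that was lower (12.4%), Ppargc1a. These comparisons share groups with each other and are not independent.

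**Figure D3:**
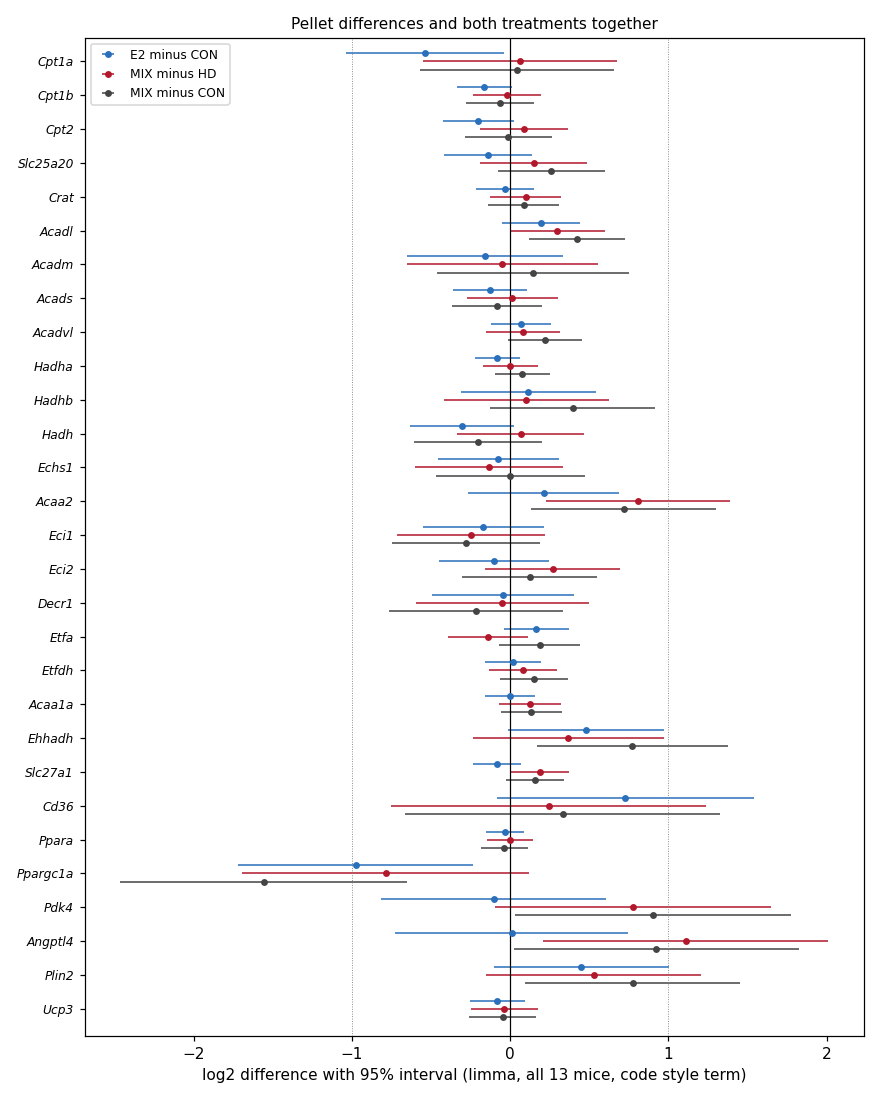
Points are log2 differences of the 29 measured genes for the pellet on chow (E2 minus CON, blue), the pellet on the high-fat diet (MIX minus HD, red) and both treatments together (MIX minus CON, grey), and lines are 95% intervals from limma. Ppargc1a lies farthest below 0 in all 3 comparisons, and Angptl4 is farthest above 0 in MIX minus HD.

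Whether the pellet difference depended on the diet was tested as an interaction, (MIX minus HD) minus (E2 minus CON). In limma 0 members passed (0% of all features). At an unadjusted p under 0.05, 1 was above 0, Slc27a1 at 0.27 (SE 0.11), and 0 were below, against 2.1% of all features in either direction. Angptl4 had the next smallest p, at 1.10 (SE 0.53). The difference between the diet responses with and without the pellet was therefore not shown for any member.

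The carnitine shuttle brings long acyl chains into the mitochondrion. Cpt1a, the carnitine palmitoyltransferase of the outer membrane and the regulated step of entry, was at 9.70, 9.96 and 9.68 in CON, 9.63, 9.44 and 10.19 in HD, 9.20, 9.79, 8.98 and 8.97 in E2, and 10.01, 9.68 and 9.84 in MIX. Among E2 mice only replicate 2 was in the range of the CON mice. E2 minus CON was -0.54 (SE 0.23), -0.50 within numbered and -0.71 within lettered mice. Its HD minus CON difference was -0.02 (95% interval -0.56 to 0.51) and took opposite signs in the code styles, -0.29 in numbered and 0.52 in lettered mice. MIX minus E2 was 0.58 (-0.02 to 1.18), and 0.26 without E2 replicate 4.

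Cpt1b, the muscle form of the same enzyme, was near the array median and steady, with values of 5.13 to 5.53 over all mice. CON mice were at 5.44, 5.53 and 5.33, HD mice at 5.33, 5.44 and 5.39, E2 mice at 5.19, 5.32, 5.48 and 5.13, and MIX mice at 5.28, 5.25 and 5.33. All groups overlapped with CON, and HD minus CON was -0.05 (-0.23 to 0.14).

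Slc25a20, the carnitine-acylcarnitine carrier of the inner membrane, had the smallest p of the averaged diet difference. It was at 8.06, 8.15 and 8.04 in CON, 8.11, 8.09 and 8.39 in HD, 8.13, 7.87, 7.75 and 7.98 in E2, and 8.25, 8.28 and 8.68 in MIX. Every MIX mouse was above every E2 and CON mouse, whereas HD replicates 1 and 2 were within the CON range. The averaged diet difference was 0.26 (SE 0.10, adjusted p = 1.00 in limma), and MIX minus E2 was 0.40 (SE 0.15), 0.42 within lettered mice and 0.26 without MIX replicate 3. The diet difference without the pellet was 0.11 (-0.18 to 0.41), with 0.00 in numbered and 0.35 in lettered mice.

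Cpt2, which turns acylcarnitine back into acyl-CoA inside the mitochondrion, averaged 8.09 ± 0.07 in CON, 7.99 ± 0.21 in HD, 7.88 ± 0.12 in E2 and 8.14 ± 0.08 in MIX. Crat, which handles short acyl groups, averaged 7.34 ± 0.11, 7.32 ± 0.15, 7.30 ± 0.07 and 7.45 ± 0.04 in the same order. For both, each MIX mouse was above each E2 mouse, and the fitted MIX minus E2 differences were 0.19 (SE 0.12) for Cpt2 and 0.11 (SE 0.10) for Crat. The difference of Cpt2 was 0.02 without E2 replicate 4, and that of Crat 0.03 without CON replicate 3. All 5 shuttle genes had an E2 minus CON difference below 0 and a MIX minus E2 difference above 0, comparisons that share the E2 mice.

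The acyl-CoA dehydrogenases open each round of the spiral and differ in the chain length they take. Acadl, for long chains, was at 8.84, 9.03 and 8.62 in CON, 8.99, 8.84 and 9.03 in HD, 9.03, 9.00, 8.95 and 9.12 in E2, and 9.32, 9.05 and 9.36 in MIX. The MIX mice were above all CON and HD mice, and MIX replicate 2 overlapped the E2 mice. MIX minus CON was 0.42 (SE 0.14, adjusted p = 0.447 in limma), 0.62 within lettered mice and 0.18 without CON replicate 3. The pellet difference averaged over both diets was 0.25 (SE 0.09), and 0.13 without CON replicate 3. HD minus CON was 0.12 (-0.14 to 0.39), and -0.02 without that mouse.

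Acadm, for medium chains, varied within every group. It was at 7.97, 8.33 and 8.52 in CON, 8.23, 8.48 and 8.69 in HD, 8.39, 8.36, 7.71 and 7.94 in E2, and 8.90, 8.50 and 8.15 in MIX. All groups overlapped, with HD minus CON at 0.20 (-0.33 to 0.72) and MIX minus E2 at 0.31 (-0.29 to 0.90). Acads, for short chains, and Acadvl, for very long chains, were steadier. Acads averaged 7.65 ± 0.19 in CON, 7.55 ± 0.14 in HD, 7.52 ± 0.10 in E2 and 7.55 ± 0.09 in MIX, and Acadvl 7.88 ± 0.11, 8.02 ± 0.11, 7.96 ± 0.11 and 8.07 ± 0.07.

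Hadha and Hadhb encode the subunits of the mitochondrial trifunctional protein, which carries out the remaining steps on long chains. Their genes lie head to head on chromosome 5, with start sites 273 bases apart. The stretch that lies within 250 bases upstream of both start sites, chr5:30155003-30155230 on GRCm38.p6, is shown because both genes read away from it. It is written on the plus strand.
Hadha and Hadhb: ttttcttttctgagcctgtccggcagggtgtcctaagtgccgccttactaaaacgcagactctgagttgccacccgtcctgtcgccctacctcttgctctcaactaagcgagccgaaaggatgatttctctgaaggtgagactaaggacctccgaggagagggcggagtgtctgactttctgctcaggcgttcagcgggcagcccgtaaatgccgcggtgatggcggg

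Hadha varied little, at 9.22, 9.30 and 9.14 in CON, 9.30, 9.36 and 9.22 in HD, 9.24, 9.22, 9.03 and 9.09 in E2, and 9.20, 9.26 and 9.22 in MIX. The groups overlapped, and the averaged diet difference was 0.12 (SE 0.05). Hadhb averaged 7.98 ± 0.10 in CON, 8.27 ± 0.14 in HD, 8.09 ± 0.41 in E2 and 8.35 ± 0.13 in MIX, and its HD and MIX mice were all above its CON mice. The HD minus CON difference of Hadhb was 0.29 (SE 0.20), 0.35 in numbered and 0.18 in lettered mice. Over the 13 mice, Hadha and Hadhb correlated with Pearson's r = 0.600 (permutation p = 0.0304) and Spearman's rho = 0.435 (permutation p = 0.139), the only such relation computed. Values were shuffled without regard to group, so differences between groups enter these correlations and their p-values. Without the 2 mice farthest from the median of Hadha, E2 replicate 3 and HD replicate 2, both numbered, r was 0.234 (n = 11, permutation p = 0.489), over a narrower range of Hadha. Within code styles r was 0.652 in the 7 numbered mice (exact permutation p = 0.104) and 0.862 in the 6 lettered mice (exact permutation p = 0.0278).

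The other enzymes of the spiral did not share a direction. Echs1, the short-chain enoyl-CoA hydratase, averaged 8.46 ± 0.16 in CON, 8.60 ± 0.02 in HD, 8.39 ± 0.32 in E2 and 8.44 ± 0.26 in MIX. Hadh, the hydroxyacyl-CoA dehydrogenase of shorter chains, averaged 8.68 ± 0.09, 8.41 ± 0.11, 8.36 ± 0.22 and 8.60 ± 0.35, and each HD mouse was below each CON mouse. Its HD minus CON difference was -0.27 (-0.62 to 0.08), -0.21 in numbered and -0.39 in lettered mice.

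Acaa2, the mitochondrial thiolase that closes the round, was at 8.49, 8.46 and 8.05 in CON, 8.45, 8.28 and 8.01 in HD, 9.23, 8.35, 8.25 and 8.46 in E2, and 8.55, 9.07 and 8.93 in MIX. The MIX mice were above all CON and HD mice, and E2 replicate 1 was the highest of all. MIX minus HD was 0.81 (SE 0.26, adjusted p = 0.685 in limma), a 1.75-fold difference. Within lettered mice, where replicate 3 is the only HD mouse, it was 0.84. MIX minus CON was 0.72 (SE 0.26), and the averaged pellet difference 0.51 (SE 0.17). E2 minus CON was 0.21 (-0.26 to 0.69), or 0.02 without E2 replicate 1, and HD minus CON was -0.09 (-0.60 to 0.42).

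Eci1 and Eci2, the enoyl-CoA isomerases, and Decr1, the dienoyl-CoA reductase, prepare unsaturated chains for the spiral. Eci1 averaged 8.02 ± 0.18 in CON, 7.99 ± 0.14 in HD, 7.83 ± 0.21 in E2 and 7.84 ± 0.38 in MIX. Eci2 averaged 7.88 ± 0.10, 7.74 ± 0.17, 7.79 ± 0.12 and 7.94 ± 0.38, and Decr1 7.94 ± 0.30, 7.77 ± 0.26, 7.88 ± 0.25 and 7.86 ± 0.36. All 3 had HD minus CON and E2 minus CON differences below 0, the lowest being -0.17, and no groups compared were separated.

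Etfa, a subunit of the electron transfer flavoprotein, had the smallest p of HD minus CON. It was at 8.35, 8.50 and 8.11 in CON, 8.84, 8.70 and 8.40 in HD, 8.69, 8.52, 8.43 and 8.41 in E2, and 8.45, 8.36 and 8.18 in MIX. HD replicates 1 and 2 were the highest of all mice, while HD replicate 3 was below CON replicate 2. The difference between HD and CON was 0.33 (SE 0.10, adjusted p = 1 in limma), a 1.25-fold difference, with 0.34 in numbered and 0.29 in lettered mice. Its lettered mice differed from the numbered ones by -0.27 (SE 0.08) in the fit. MIX minus E2 was 0.02 (-0.23 to 0.27). Etfdh, which passes the electrons to ubiquinone, averaged 7.71 ± 0.05 in CON, 7.78 ± 0.08 in HD, 7.72 ± 0.10 in E2 and 7.89 ± 0.12 in MIX.

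Peroxisomes shorten chains that mitochondria do not take. Ehhadh, their bifunctional enzyme and a classic PPAR-alpha target in liver, was at 5.67, 5.71 and 5.70 in CON, 5.83, 5.94 and 6.52 in HD, 6.25, 6.56, 5.94 and 5.90 in E2, and 6.95, 6.24 and 6.36 in MIX. The 3 CON mice were nearly equal, and all 10 other mice were above them. MIX minus CON was 0.77 (SE 0.27, adjusted p = 0.478 in limma), a 1.71-fold difference, E2 minus CON 0.48 (SE 0.22) and HD minus CON 0.41 (SE 0.24). Without HD replicate 3 HD minus CON was 0.13, and it was 0.20 in numbered and 0.82 in lettered mice. MIX minus HD was 0.37 (-0.24 to 0.97) and was 0.00 within lettered mice. Acaa1a, the peroxisomal thiolase, averaged 7.03 ± 0.05 in CON, 7.04 ± 0.10 in HD, 7.03 ± 0.12 in E2 and 7.23 ± 0.04 in MIX, and the MIX mice were above every other mouse.

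Slc27a1, a fatty acid transport protein, showed a like pattern with small differences. It was at 6.92, 6.99 and 6.97 in CON, 6.89, 6.93 and 6.97 in HD, 6.79, 6.90, 6.83 and 6.97 in E2, and 7.12, 7.31 and 7.07 in MIX. The MIX mice lay above all others, which overlapped. MIX minus E2 was 0.24 (SE 0.08, adjusted p = 1.00 in limma), a 1.18-fold difference, and 0.17 without MIX replicate 2. MIX minus HD was 0.19 with that mouse and 0.11 without it, and MIX minus CON 0.16 and 0.09. The lettered CON, E2 and HD mice, 1 per group, had the same listed value, 6.97. The difference of the MIX mice from each of them was therefore the same number, 0.19. The HD minus CON difference was -0.03 (-0.19 to 0.13).

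Cd36, a scavenger receptor and fatty acid translocase found on adipocytes, macrophages and capillary endothelium, was dim and uneven. It was at 4.12, 4.12 and 5.18 in CON, 4.94, 4.63 and 4.11 in HD, 5.50, 4.98, 5.53 and 4.81 in E2, and 4.08, 4.84 and 5.35 in MIX. CON replicate 3 was more than 1 above the other CON mice, and all group comparisons overlapped. E2 minus CON was 0.73 (-0.09 to 1.54), 1.22 in numbered but -0.37 in lettered mice, and HD minus CON was 0.67 in numbered and -1.07 in lettered mice. CON replicate 3 also had the highest adipocyte marker score of all mice, as given below.

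Ppara, the receptor most tied to fatty acid oxidation, stayed between 5.22 and 5.37 in every mouse. CON mice were at 5.32, 5.37 and 5.27, and HD mice at 5.22, 5.34 and 5.29. MIX mice were at 5.22, 5.29 and 5.29, and the 4 E2 mice at 5.29. The listed value was identical in the 4 E2 mice, HD replicate 3 and MIX replicates 2 and 3. Of all named features 45.4% were dimmer, and the intervals of its group differences lay within 1 of 0.

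Ppargc1a, the coactivator that drives mitochondrial gene programs with PPAR and estrogen-related receptors, was the member with the smallest p in the pellet comparisons on chow and averaged over diets, and in MIX minus CON. It was at 7.24, 7.37 and 8.30 in CON, 6.96, 6.51 and 7.12 in HD, 6.76, 6.67, 5.96 and 7.03 in E2, and 6.98, 6.96 and 5.59 in MIX. Every CON mouse was above every other mouse, by little for CON replicate 1 against HD replicate 3 and by most for CON replicate 3. MIX minus CON was -1.56 (SE 0.41, adjusted p = 0.368 in limma), a 2.95-fold difference, while the plain difference of means was -1.13. E2 minus CON was -0.98 (SE 0.33, adjusted p = 1.00), HD minus CON -0.77 (SE 0.36, adjusted p = 1), the averaged pellet difference -0.88 (SE 0.26, adjusted p = 0.344) and the averaged diet difference -0.68 (SE 0.27, adjusted p = 1.00).

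The HD minus CON and E2 minus CON differences of Ppargc1a were below 0 in both code styles. That sign was fixed in advance, since every CON mouse was above every other mouse. MIX has lettered mice only. Lettered CON, HD and E2 hold 1 mouse each, which for CON is the high replicate 3. HD minus CON was -0.57 in numbered and -1.18 in lettered mice, E2 minus CON was -0.84 and -1.27, and MIX minus CON was -1.79 in lettered mice. Lettered mice were higher than numbered ones by 0.65 (SE 0.30) in the fit, and this term enters each MIX difference. MIX minus CON was -1.10 without MIX replicate 3, and MIX minus E2, at -0.58 (-1.48 to 0.31), was -0.12 without it. Leaving out CON replicate 3 gave -0.60 for HD minus CON.

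**Figure D4:**
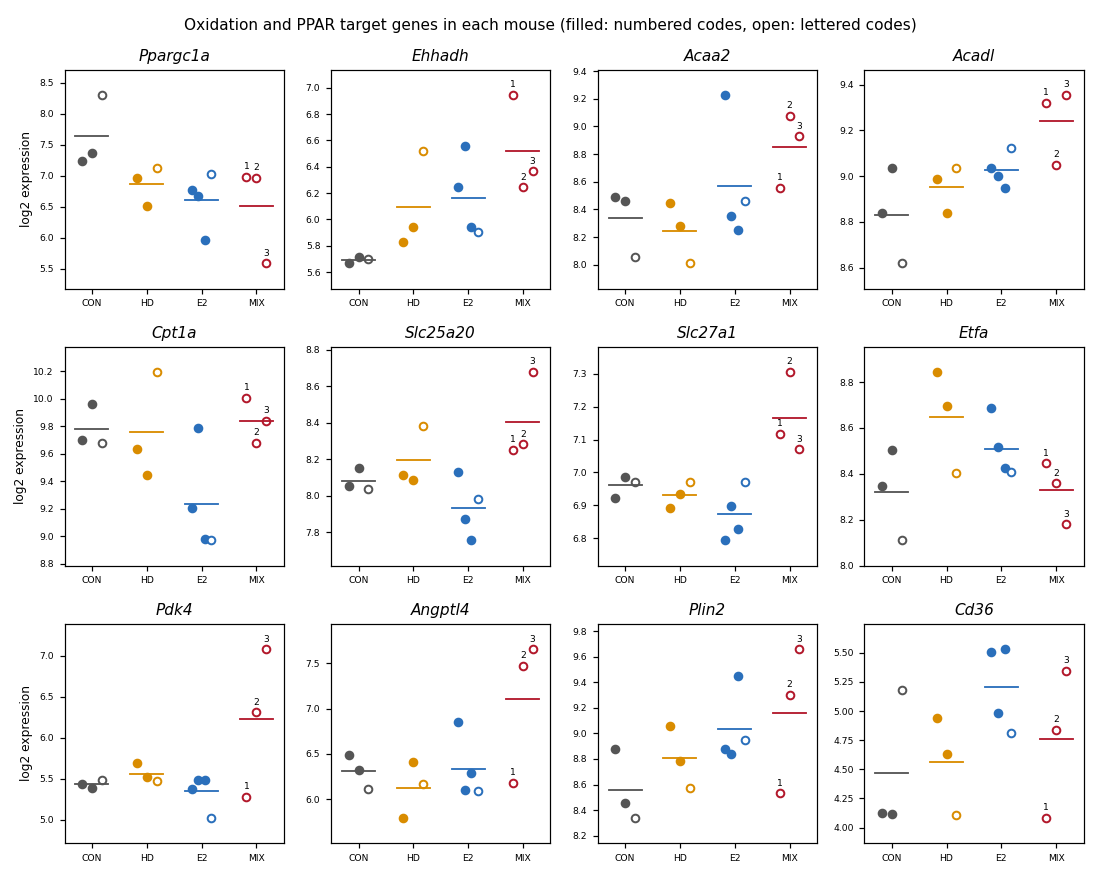
Each point is the log2 expression of a gene in a mouse, filled for numbered and open for lettered animal codes, with a line at the group mean and the replicate number beside MIX mice. In Ppargc1a all CON points are above the others, in Ehhadh all CON points are below the others, and in Pdk4 and Angptl4 the MIX replicates 2 and 3 lie above the rest while MIX replicate 1 does not.

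Pdk4, Angptl4 and Plin2 had their highest values in MIX replicate 3, and Ucp3 did not. Pdk4, the kinase that shuts pyruvate dehydrogenase when fat is burned, was at 5.43, 5.38 and 5.49 in CON, 5.69, 5.52 and 5.47 in HD, 5.38, 5.49, 5.49 and 5.02 in E2, and 5.28, 6.31 and 7.08 in MIX. MIX replicates 2 and 3 exceeded all other mice, and MIX replicate 1 was below every CON and HD mouse. MIX minus E2 was 1.01 (SE 0.39), a 2.01-fold difference, and MIX minus CON 0.90 (SE 0.39). Leaving out MIX replicate 3 gave 0.47 for MIX minus CON, and leaving out MIX replicate 1, the low mouse, gave 1.38 (adjusted p = 0.0723 in limma). With all mice kept, the adjusted p of every member in MIX minus CON was 0.368 or higher in limma. The HD minus CON difference was 0.13 (-0.63 to 0.88).

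Angptl4, a secreted inhibitor of lipoprotein lipase, followed the same mice. It was at 6.49, 6.32 and 6.11 in CON, 5.79, 6.41 and 6.16 in HD, 6.85, 6.10, 6.28 and 6.09 in E2, and 6.18, 7.47 and 7.66 in MIX. MIX replicate 1 was within the range of each other group, and MIX replicates 2 and 3 were above them all. MIX minus HD was 1.11 (SE 0.41, adjusted p = 0.685 in limma), a 2.16-fold difference, MIX minus CON 0.92 (SE 0.41) and MIX minus E2 0.91 (SE 0.40). MIX minus HD ran from 0.83 without MIX replicate 3 to 1.57 without MIX replicate 1. Its HD minus CON difference was -0.19 (-0.97 to 0.60).

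Plin2, which coats lipid droplets, was at 8.88, 8.46 and 8.34 in CON, 9.06, 8.78 and 8.57 in HD, 8.88, 8.84, 9.45 and 8.95 in E2, and 8.53, 9.30 and 9.66 in MIX. MIX replicate 3 was again the highest and MIX replicate 1 below all but 2 CON mice, and all groups overlapped. MIX minus CON was 0.77 (SE 0.31), the averaged pellet difference 0.49 (SE 0.19), and HD minus CON 0.25 (-0.35 to 0.84). Without MIX replicate 3, MIX minus CON was 0.53 and the averaged pellet difference 0.37. Without MIX replicate 1 they were 1.09 and 0.65.

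Ucp3, a mitochondrial carrier best known from muscle, was at 5.24, 5.46 and 5.20 in CON, 5.24, 5.27 and 5.36 in HD, 5.18, 5.24, 5.35 and 5.13 in E2, and 5.23, 5.16 and 5.24 in MIX. The groups overlapped, and each of its differences between groups had an interval within 1 of 0.

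Some cell type markers differed between the same mice. The mean of 10 endothelial markers was 7.71 in MIX replicate 2, 6.34 in MIX replicate 3 and 5.34 in MIX replicate 1, and 5.65 to 6.34 in the other groups, so the highest and the lowest of all mice were both MIX mice. For 9 measured stromal markers of 10 it was 9.45, 8.92 and 7.78 in MIX replicates 2, 3 and 1, against 7.70 to 8.44 in CON, 8.00 to 8.08 in HD and 7.79 to 9.03 in E2. Pdk4 and Angptl4 were highest in MIX replicates 2 and 3, and Plin2 was highest in MIX replicate 3. In MIX replicate 1 Pdk4 and Plin2 were low, and Angptl4 was within the range of each other group. E2 replicate 4 had means near those of MIX replicate 3, 9.03 for stromal and 6.34 for endothelial markers. Its Pdk4 was at 5.02, the lowest of all mice, and its Angptl4 at 6.09. The part of cell composition in those values was not tested.

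Macrophage markers, 13 measured of 14, averaged 6.58 to 6.91 in CON, 7.27 to 7.37 in HD, 7.48 to 7.85 in E2 and 7.46 to 8.64 in MIX, with MIX replicate 3 highest. CON was thus the group apart in this mean, as it was for Ppargc1a and Ehhadh. Not every marker followed, since Mrc1 in MIX replicate 1 and Lyz2 in HD replicate 3 were below every CON mouse. Cd163 was below the array median in all 13 mice. Mesothelial markers, 8 of 8, averaged 7.41 to 7.89 in CON, 7.93 to 8.07 in HD, 7.89 to 8.86 in E2 and 8.22 to 8.76 in MIX. The part of these cells in the values of Ppargc1a, Ehhadh or Cd36 was not tested.

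Adipocyte markers, 11 measured of 12, averaged 6.03 in CON replicate 3 and 5.24 to 5.53 in all other mice. Retn was at 7.00 in CON replicate 3 and at most 5.17 elsewhere. Adipoq was below the array median in all 13 mice, and it too was highest in CON replicate 3, at 4.10. Lep, Plin1, Cidec, Fabp4 and Car3 were also highest in that mouse, whereas Plin4, Lipe, Pparg and Pck1 were not. CON replicate 3 was also the mouse with the highest Ppargc1a and, among CON mice, the highest Cd36, and HD minus CON for Ppargc1a without it is given above. Smooth muscle markers, 10 of 10, averaged 6.41 to 7.36 over all mice and epithelial markers, 10 of 10, 9.66 to 10.2, the lowest in MIX replicate 2. Skeletal and cardiac muscle markers, 12 of 12, averaged 5.28 to 5.54, and Myh1 and Myh4 were below the array median in every mouse. Red cell markers, 3 measured of 8 (Alas2, Slc4a1 and Bpgm), averaged 6.06 to 6.64 in CON, 6.10 to 6.82 in HD, 6.32 to 6.96 in E2 and 6.87 to 7.27 in MIX. The MIX mice were above all CON and HD mice, by little for MIX replicate 2 at 6.87 against HD replicate 2 at 6.82. Alas2 and Bpgm were separated in this way, but Slc4a1 was not, at 5.84 in MIX replicate 2 and 5.91 to 6.02 in HD. For Acadl, Acaa2, Slc27a1 and Acaa1a the MIX mice were also above all CON and HD mice. The part of red cells in the values of these 4 members was not tested.

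**Figure D5:**
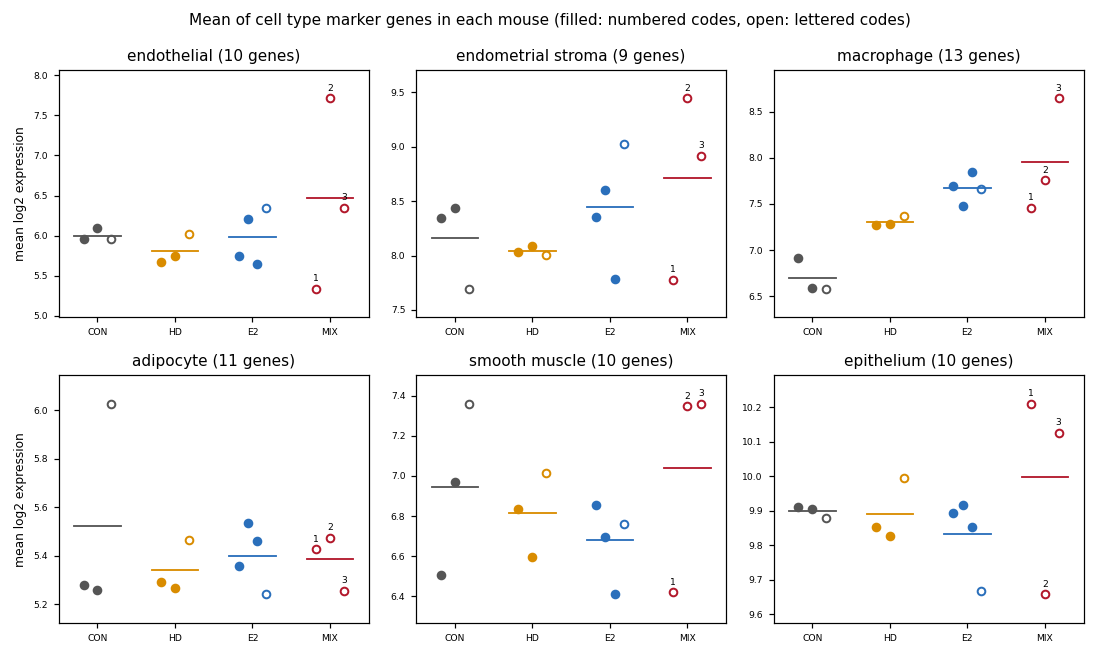
Each point is the mean log2 value of the measured marker genes of a cell type in a mouse, filled for numbered and open for lettered animal codes, with a line at the group mean and the replicate number beside MIX mice. MIX mice 1 and 2 are the lowest and the highest in the endothelial panel, CON mice are lowest in the macrophage panel, and CON 3 is alone at the top of the adipocyte panel.

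Other genes of fatty acid handling, 81 measured in 6 lists, showed no passing member in limma in any comparison. In HD minus CON 41 of the 81 were above 0, with a median of 0.00, and the averaged diet difference for 45 with a median of 0.02. For the averaged diet difference, 7 of the 81 were higher and 2 lower at an unadjusted p under 0.05, against 1.79% and 1.57% of all features. Acox3, a peroxisomal acyl-CoA oxidase, differed by 0.35 (SE 0.10) and the carnitine importer Slc22a5 by 0.30 (SE 0.09). Pdk1, a sister kinase of Pdk4, averaged 6.15 in CON, 6.66 in HD, 6.45 in E2 and 6.95 in MIX, a diet difference of 0.64 (SE 0.21).

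By list, the averaged diet difference was above 0 for 11 of 14 genes of peroxisomal oxidation and import, 7 of 13 further mitochondrial enzymes, 7 of 12 genes of acyl-CoA synthesis and transport, 8 of 14 of lipolysis and lipid droplets, 7 of 15 receptors, partners and cofactors, and 5 of 13 further PPAR targets and fuel switches. Besides Acox3 in the peroxisomal list, Scp2 differed by 0.24 (SE 0.12). Of the further mitochondrial enzymes Acad11 had 0.23 (SE 0.10) and Hsd17b10 -0.14 (SE 0.11). In the transport list Slc27a3 had -0.54 (SE 0.22). The lipid droplet genes Cidea and Cidec went opposite ways, 0.34 (SE 0.15) and -0.30 (SE 0.13). Among cofactors, Med1 had -0.12 (SE 0.06) and Ncoa2 -0.20 (SE 0.14), and Pdk2, another pyruvate dehydrogenase kinase, had -0.30 (SE 0.19).

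The averaged pellet difference was above 0 for 36 of the 81, with a median of -0.03, and 9 were higher and 9 lower at an unadjusted p under 0.05, against 3.73% and 6.25% of all features. Fabp5, a fatty acid binding protein that carries ligands to PPAR-delta, had the smallest p, at 1.22 (SE 0.27, adjusted p = 0.227 in limma). It averaged 5.26 in CON, 5.53 in HD, 6.15 in E2 and 6.78 in MIX. Pparg, the receptor of adipocytes and macrophages, differed by 0.61 (SE 0.21), and Sirt1, a deacetylase that acts on Ppargc1a, by -0.16 (SE 0.05). The lipases and droplet genes gave 0.57 (SE 0.18) for Mgll and -0.19 (SE 0.06) for Plin1. Slc27a3 had -0.73 (SE 0.21), Acacb, which makes the malonyl-CoA that restrains Cpt1, -0.64 (SE 0.20), and Pdk2 -0.50 (SE 0.18). Acad9 had 0.35 (SE 0.13), Pccb -0.29 (SE 0.15), Acox3 0.24 (SE 0.10) and Ech1 0.19 (SE 0.10).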

How the data were processed

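Expression was measured on Affymetrix arrays in the endometrium of 13 mice. The authors deposited log2 expression per feature, and per the submitters' processing notes they used RMA, whose version, array library and filters the sources used here do not give. RMA treats all arrays together and compresses differences of dim features. Arrays carry no read depth, so precision depends on the number of mice. Of 65929 features, 30604 carried 1 symbol in the array annotation, 2146 several and 33179 none here, and 827 symbols were updated through Entrez identifiers. No pair of arrays shared more than 2742 identical values, so each was a separate array.

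All features and mice entered 1 fit in limma 3.58.1 (R 4.3.3; lmFit, eBayes) of 4 group terms and code style, with 8 residual degrees of freedom. It was tested on simulated data, with conditions set only on mean differences and none on how many planted changes were called. A count of 0 called members therefore does not show that no member changed. A call was a two-sided p under 0.05 after Benjamini-Hochberg adjustment over the whole array, whatever the fold. Numbered and lettered values are plain differences of means within a code style, with 1 lettered mouse each in CON, E2 and HD. The Hadha and Hadhb correlation used permutations in SciPy 1.17.1.

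Named for each comparison were members without overlap and with an unadjusted p under 0.05, at most 4, or else the 2 of smallest p. From each related list the 2 of smallest p are named, here for the averaged diet and pellet differences. Every member is given once by role. Members and lists were chosen with earlier results of these data known. Members named outside this rule, beside small counts, were chosen after their values were seen. Alternatives left out each mouse, the code style term or dim features, kept 1 code style, centred arrays, averaged features per symbol, used an intensity trend in the variance prior, or added a replicate block.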

Additional observations from a re-analysis of the deposited data

How the results depend on the processing

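No member passed in limma in any comparison under the 21 alternatives, and the lowest adjusted p was 0.0723. Of 850 values recomputed, 786 stayed within the set limits and 64 moved. A named member counted as staying while its sign and its call held, whatever its size. Ppargc1a in MIX minus CON, for example, ran from -2.30 to -1.10. Only named members could count as reversed, and 0 did. They had been picked in these same data by lack of overlap or small p, so a reversal was unlikely from the start. The 850 values also include the counts of members called, which were 0 throughout. The share that stayed is thus no measure of support. Other members changed sign, such as Decr1 in 11 of 20 settings of the interaction and Etfa in 7 of 20 of MIX minus E2. The features called by limma over all 65929 moved most. Without the code style term they were 1 in MIX minus E2, 12 in MIX minus HD and 15 in MIX minus CON. With dim features left out they were 6 in MIX minus HD and 11 in MIX minus CON, and with features averaged per symbol 7, 17 in the averaged pellet difference and 13 in MIX minus CON. Centring the arrays gave 5 in MIX minus CON, and the intensity trend 6 in the averaged pellet difference. Lettered mice alone gave 0 in these 3 comparisons. The replicate block also gave 0 in all 3. The replicate numbers do not pair the mice: over 18 pairs of mice of the same number, correlations of deviations ran from -0.373 to 0.378, with 6 over 0.1. With the replicate block the median member difference was 0.0697 in MIX minus E2, 0.0361 in the averaged diet difference, 0.0133 in MIX minus HD and 0.0331 in MIX minus CON. Centring the arrays gave medians of 0.18 in MIX minus HD, 0.20 in MIX minus CON and 0.19 in the interaction, and lettered mice alone 0.0829 in HD minus CON. Leaving out 1 mouse at a time gave 0 to 24 called features in MIX minus E2, 0 to 3 in the averaged diet difference, 0 to 80 in MIX minus HD, 0 to 224 in the averaged pellet difference, 0 to 89 in MIX minus CON and 0 to 2 in the interaction, whose median ran from 0.0774 to 0.184. The median of HD minus CON changed sign in 5 of 21 alternatives, so no direction can be read from it. The cause of these moves was not tested.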
